A study of Mus musculus with 17 samples.

Results

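Cells of the mouse line 32D that had received an empty retroviral vector were set against the parental line they came from. The members are the 4 arrays whose titles name the empty pLXRN vector (2 arrays) or 32D with no construct (2 arrays), of 17 in the series. RNA was hybridised to Affymetrix mouse exon arrays, and the series compares 32D lines that carry human FLT3, the receptor of FLT3 ligand, in wild-type form or with an internal tandem duplication (ITD). The vector cells were transduced with retrovirus made in EcoPack packaging cells, selected with the antibiotic G418 and kept as a polyclonal population, in medium with murine IL-3 at 1 ng/mL. The parental cells were grown at the same IL-3 dose and were neither transduced nor selected, so that transduction, selection and separate passage cannot be told apart in this comparison. The other arrays, given here as description, came from a wild-type FLT3 line given its ligand at 20 ng/mL (2 arrays, IL-3 not stated outright), from that line at 1 ng/mL of IL-3 (2 arrays), and from 9 different ITD mutants of FLT3 grown without IL-3 (1 array each). All lines derive from 32D. The labels call the 2 arrays of a group biological replicates without saying whether they came from separate cultures, so the spread between them may be technical. The p-values below rest on the spread within groups pooled over all 17 arrays, with most degrees of freedom from the 9 different ITD mutants. They may not measure the spread between separately made vector lines.

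32D cells are IL-3-dependent myeloid progenitors that make granule proteins of neutrophils and, in part, of basophils, mast cells and eosinophils. Interferons bind receptors at the cell surface and act through STAT proteins and IRF9, which switch on a large set of antiviral genes through a promoter element, the interferon-stimulated response element. Retroviral vectors enter a cell as RNA, are copied into DNA and integrate, and cells carry sensors and restriction factors that act on these steps.

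The gene value was the mean log2 signal of the probe sets of 1 gene symbol, and all levels and differences below are on this log2 scale. A gene is called where limma gave an adjusted p under 0.05, and ± is the standard error of a difference in that fit across all 17 arrays. Over 20227 genes the 2 vector arrays correlated at 0.983 with each other, the 2 parental arrays at 0.983, and vector with parental arrays at 0.967 to 0.968. Flt3 had 5.15 and 5.24 on the vector arrays and 5.37 and 5.12 on the parental arrays, and it did not pass the test (-0.05 ± 0.11, adjusted p = 0.891). With wild-type FLT3 it read 6.73 and 6.79, so neither the vector nor the parental arrays showed the transgene's signal. Of 12 markers of 32D myeloblasts 11 were measured, and all 11 lay between 9.13 and 13.11, as the label has it. Markers of mast cells or basophils, which these cells also express, averaged 9.41 and 9.40 on the vector arrays and 11.48 and 11.32 on the parental arrays. Those of mature neutrophils averaged 9.27 and 9.26 against 9.79 and 9.75. A longer list of 23 late granule and mature neutrophil genes went the other way, with a median difference of 0.37, vector minus parental. The 3 measured eosinophil markers averaged 8.70 and 8.94 on the vector arrays against 10.00 and 9.95. They did not all go the same way: Epx and Prg2 were lower in vector cells and Ccr3 was higher, none of them called. Under other settings the difference of Ccr3 ran from -0.39 to 1.05. The 4 macrophage markers averaged 7.22 and 7.25 against 7.16 and 7.25. The 4 T cell markers averaged 5.84 and 6.10 on the vector arrays against 5.85 and 5.84 on the parental arrays, and the 8 stromal or epithelial markers averaged 6.39 and 6.37 against 6.21 and 6.22.

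In vector cells 257 genes were higher and 194 lower than in parental cells, so 451 of 20227 genes were called (2.23%; 1.27% higher and 0.959% lower). Of these, 184 differed at least 2-fold, 104 of them higher and 80 lower. The shares of 1.27% higher and 0.959% lower are the background for every count of called list members in this fit below. The vector and parental arrays did not overlap for any of the 451, but this also held for 55% of all genes, with 2 arrays in each group. The median difference over all genes was 0.026, and when each array was centred on its median, 44.7% of the called genes were higher in place of 57.0%. Fits without 1 array called 105 genes without the first vector array, 133 without the second, 149 without the first parental array and 126 without the second.

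Genes that interferon switches on were higher in vector cells in most cases measured. Of 41 measured members of the interferon-stimulated list, limma called 24 higher in vector cells, against 1.27% of all genes, and none lower. At an unadjusted p under 0.05 it was 34 higher and 0 lower. The list's median difference was 1.22, against 0.026 over all genes, and for 38 of the 41 both vector arrays lay above both parental arrays (29.3% of all genes). Rtp4, a chaperone-like protein that interferon induces, had 9.90 and 9.71 in vector cells and 5.45 and 5.02 in parental cells. This was a 23.7-fold difference (4.57 ± 0.51, limma adjusted p = 0.000105).

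Oas2 belongs to the oligoadenylate synthetases, which sense double-stranded RNA and activate RNase L. It read 9.06 and 8.96 in vector cells against 6.09 and 5.79 in parental cells (3.07 ± 0.25, limma adjusted p = 9e-06). Its relative Oasl2 had 8.57 and 8.56 in vector cells and 5.58 and 5.66 in parental cells (2.95 ± 0.19, limma adjusted p = 8.83e-07). Usp18, a protease that removes ISG15 from proteins and restrains signalling of the type I interferon receptor, had 9.5 and 9.38 in vector cells and 6.74 and 6.77 in parental cells (2.69 ± 0.51, limma adjusted p = 0.00844). Irf7, the transcription factor that amplifies type I interferon genes, had 9.36 and 9.42 against 6.99 and 6.73 in parental cells (2.53 ± 0.31, limma adjusted p = 0.000257). In each of these 5 genes the groups stood more than 2 log2 units apart while the 2 arrays of a group differed by less than 0.5. Of the 24 called genes, 16 were called in all 4 fits without 1 array and 3 in none of them, Usp18, Rsad2 and Bst2, whose adjusted p went up to 0.0899, 0.103 and 0.161.

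**Figure D1:**
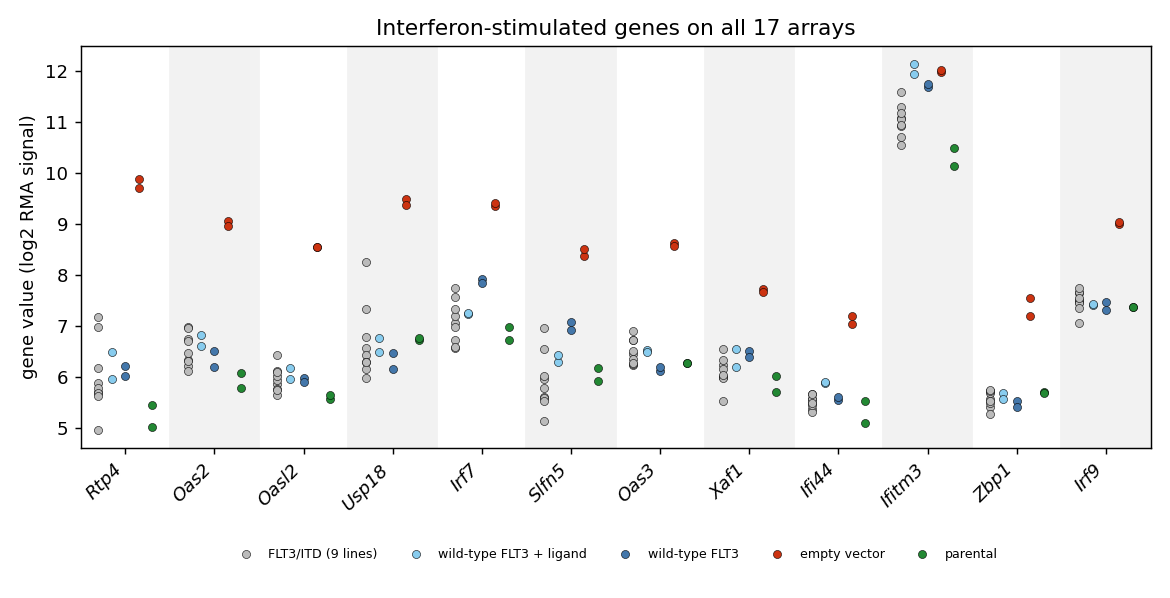
Each dot is 1 array's gene value on a log2 scale (y axis) for the 12 called interferon-stimulated genes with the largest differences (x axis), coloured by group with the 9 ITD lines at the left of each gene and the parental arrays at the right. The vector arrays are the highest of all 17 for every gene shown but Ifitm3, for instance at 9.90 and 9.71 for Rtp4 against 5.45 and 5.02 in parental cells.

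The other called members covered several steps of the response, and they are named here after their values were seen. Irf9, the DNA-binding part of the factor that type I interferon activates, had 9.00 and 9.06 in vector cells and 7.39 on both parental arrays (1.64 ± 0.17). Oas3 differed by 2.33 ± 0.19, Slfn5 by 2.39 ± 0.40, the apoptosis-related Xaf1 by 1.83 ± 0.23, Ifi44 by 1.82 ± 0.16, the membrane protein Ifitm3, which blocks the fusion of viruses, by 1.68 ± 0.23, and the nucleic acid sensor Zbp1 by 1.67 ± 0.17. Dhx58, a helicase that binds viral RNA, differed by 1.48 ± 0.22 and Rsad2, or viperin, which makes a chain-terminating nucleotide, by 1.59 ± 0.31. Parp14, Parp9, Trim30a and Trim25 differed by 0.80 to 1.03. For Zbp1 3 of 8 probe sets passed the filter on low values only through the vector arrays. The same held for 2 of 33 of Parp14, 1 of 14 of Xaf1 and 1 of 13 of Slfn5. The direction of those probe sets was set in part by the filter. Slfn5 kept its call in 2 of the 4 fits without 1 array, with an adjusted p of up to 0.0574. Members that did not pass the test included Ifit1 (1.89 ± 0.57, limma adjusted p = 0.103), Mx2 (1.64 ± 0.48, limma adjusted p = 0.0895), Mx1 (1.37 ± 0.38, limma adjusted p = 0.0706), Ifih1 (0.99 ± 0.31, limma adjusted p = 0.119) and Stat2 (0.44 ± 0.15, limma adjusted p = 0.142). For all 5 both vector arrays were above both parental arrays, as they were for 29.3% of all genes.

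Promoters of 4 called interferon genes are shown because each holds letters of the element through which interferon signalling is known to act. The windows are those of RefSeq on GRCm38.p6, and the 250 bases before the gene start are printed 5′ to 3′ on the gene's strand, for Slfn5 (chr11:82951852-82952101, plus strand), Oas3 (chr5:120777660-120777909, minus strand), Rsad2 (chr12:26456453-26456702, minus strand) and Oas1a (chr5:120907526-120907775, minus strand). Capitals mark matches of GAAA, 2 bases of any kind and GAAA, a form of the interferon-stimulated response element, or of its reverse complement, TTTC, 2 bases of any kind and TTTC.
Slfn5: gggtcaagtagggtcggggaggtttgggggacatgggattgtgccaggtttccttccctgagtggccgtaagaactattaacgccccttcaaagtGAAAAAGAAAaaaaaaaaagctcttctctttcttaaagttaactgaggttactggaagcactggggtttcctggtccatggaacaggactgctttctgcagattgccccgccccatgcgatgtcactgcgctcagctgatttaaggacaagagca
Oas3: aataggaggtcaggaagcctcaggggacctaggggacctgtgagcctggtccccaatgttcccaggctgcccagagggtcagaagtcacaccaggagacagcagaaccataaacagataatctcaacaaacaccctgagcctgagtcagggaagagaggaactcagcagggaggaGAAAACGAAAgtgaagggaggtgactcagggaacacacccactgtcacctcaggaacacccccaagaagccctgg
Rsad2: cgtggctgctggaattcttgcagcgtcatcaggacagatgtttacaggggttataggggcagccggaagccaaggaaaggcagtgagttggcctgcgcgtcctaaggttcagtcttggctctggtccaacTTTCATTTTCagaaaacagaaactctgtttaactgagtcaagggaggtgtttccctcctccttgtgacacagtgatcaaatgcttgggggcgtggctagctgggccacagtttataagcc
Oas1a: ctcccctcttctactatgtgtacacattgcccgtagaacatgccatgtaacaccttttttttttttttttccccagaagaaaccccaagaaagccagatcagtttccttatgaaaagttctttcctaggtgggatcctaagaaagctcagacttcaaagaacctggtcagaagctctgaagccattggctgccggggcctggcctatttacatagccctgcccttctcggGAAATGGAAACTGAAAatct
The match is on the gene's strand in Slfn5, Oas3 and Oas1a and in reverse in Rsad2, and Oas1a holds overlapping matches just before its start.

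Of the 41 measured members 31 had an entry in the promoter table, and 13 of the 31 held the motif on either strand in at least 1 window (250 bases before to 50 after the start). By window this was 40.5% for the list, against 3.44% of the table's 32851 windows and 2.96% of the windows of the genes tested. Called and uncalled members of the list held it at similar rates, in 7 of 16 and in 6 of 15 genes. Among all genes called higher in vector cells 10.8% of windows held the motif, and among all genes called lower 1.41%. A second motif, TTCNNNGAA, the form of the gamma-activated site that STAT dimers bind, was in 18.9% of the list's windows against 8.3% of all windows, and in 7.17% for genes called higher and 7.51% for genes called lower. A match describes the letters of these windows and no more.

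The line with wild-type FLT3, made with the same vector and selection, read lower for most of these genes than the vector line. In that line Rtp4 had 6.02 and 6.22, Oas2 had 6.52 and 6.21, and Usp18 had 6.47 and 6.16. Against the vector line these were differences of -3.68 ± 0.51, -2.65 ± 0.25 and -3.13 ± 0.51, all called (limma adjusted p = 0.00044, 2.66e-05 and 0.00147). Over the list, wild-type minus vector had a median of -1.06, with 27 members called lower (2.71% of all genes), and wild-type minus parental had a median of 0.02, with 4 called higher and 2 lower (9.05% and 5.53% of all genes). The first of these comparisons shares the vector arrays with vector minus parental and the second shares the parental arrays, so they are not independent of it. In the 9 ITD lines Rtp4 ran between 4.98 and 7.18 with a median of 5.80, and Oas2 between 6.13 and 7.0 with a median of 6.48. Irf7 was intermediate in the wild-type line, at 7.92 and 7.85, 1.51 ± 0.31 below the vector line (limma adjusted p = 0.00621). Ifitm3 read 11.69 and 11.75 in the wild-type line against 11.99 and 12.04 with the vector, a difference that was not called (-0.29 ± 0.23, limma adjusted p = 0.542).

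The large GTPases that interferon gamma induces and that attack vacuoles holding pathogens followed at smaller size. Of 10 measured members 4 were called higher (1.27% of all genes), with a median of 0.80. Gbp3 had 7.04 and 7.09 in vector cells and 5.41 and 5.68 in parental cells (1.52 ± 0.28), and Irgm1 had 9.98 and 9.96 against 8.72 and 8.74 (1.24 ± 0.15). Irgm2 differed by 1.37 ± 0.21 and Tgtp1 by 1.27 ± 0.31. For Gbp3 2 of 15 probe sets and for Tgtp1 1 of 3 passed the filter only through the vector arrays. Both vector arrays were above both parental arrays for 10 of the 10 (29.3% of all genes). Without 1 array 1 to 3 of the 10 were called, and Irgm1 was called in each of the 4 fits.

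Of 27 nucleic acid sensors and interferon receptors, which act upstream of these genes, limma called 3 higher and 1 lower (1.27% and 0.959% of all genes). Ikbke, the kinase that phosphorylates IRF3 and IRF7, had 9.20 and 9.07 in vector cells and 7.90 and 7.99 in parental cells (1.19 ± 0.25). The transcription factor Irf1 differed by 0.54 ± 0.13. The 2 chains of the interferon gamma receptor went opposite ways: Ifngr2 had 9.84 and 9.74 in vector cells against 8.79 and 8.76 in parental cells (1.01 ± 0.21), and Ifngr1 had 9.42 and 9.39 against 9.96 and 9.91 (-0.53 ± 0.13). All 4 lost their calls in each fit without 1 array, with adjusted p of up to 0.137 to 0.264. The median of this list was 0.13.

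Of 14 genes of retroviral restriction and silencing 3 were called higher (1.27% of all genes). Adar, the double-stranded RNA deaminase, differed by 0.81 ± 0.15, the helicase Mov10 by 0.72 ± 0.16, and Slc7a1, the amino acid transporter that ecotropic retroviruses use to enter mouse cells, by 0.46 ± 0.12, with 9.75 and 9.66 in vector cells against 9.36 and 9.13 in parental cells. Slc7a1 was higher still with wild-type FLT3, at 10.19 and 10.11. Without 1 array Mov10 and Slc7a1 lost their calls in all 4 fits (adjusted p up to 0.199 and 0.356) and Adar in 3 (up to 0.0996). Of the 18 measured genes of class I antigen processing limma called none, and 2 were higher at an unadjusted p under 0.05. H2-K1, a class I heavy chain, had 9.18 and 9.21 in vector cells and 8.46 and 8.36 in parental cells (0.78 ± 0.27, adjusted p = 0.168), and its light chain B2m differed by 0.46 ± 0.17 (adjusted p = 0.185).

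For another set of large rises the wild-type line was not called different from the vector line. Ctss, the lysosomal protease cathepsin S, which trims the invariant chain of class II molecules, had 9.78 and 9.86 in vector cells and 5.34 and 5.11 in parental cells, a 24.2-fold difference (4.6 ± 0.59, limma adjusted p = 0.00031). Cd74, the invariant chain itself, had 9.54 on both vector arrays and 5.71 and 5.39 on the parental arrays (3.99 ± 0.76, limma adjusted p = 0.00844). With wild-type FLT3 the same genes read 9.69 on both arrays for Ctss and 9.76 and 9.70 for Cd74, not called different from the vector line (-0.13 ± 0.59 and 0.19 ± 0.76). In the 9 ITD lines Ctss ran between 5.54 and 8.02 and Cd74 between 6.53 and 9.95. These 2 were the called members of 9 class II genes: H2-Aa differed by 0.51 ± 0.22 (limma adjusted p = 0.288), H2-Ab1 by 0.51 ± 0.17 (limma adjusted p = 0.142), and Ciita, their master regulator, had 5.80 and 5.65 in vector cells against 5.67 and 5.79 in parental cells.

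Slfn2, a Schlafen protein known in mouse for the quiescence of T cells and monocytes, had 10.51 and 10.36 in vector cells and 6.48 and 6.40 in parental cells (4.00 ± 0.57, limma adjusted p = 0.000871). Cp, the copper-carrying ferroxidase ceruloplasmin, had 7.37 and 7.26 against 3.92 and 4.04, both under the level of 4.599 that a probe set's mean had to pass (3.34 ± 0.77, limma adjusted p = 0.0309). The myeloid lectin Clec5a had 9.08 on both vector arrays against 5.80 and 5.88 in parental cells (3.24 ± 0.53, limma adjusted p = 0.00284). In each of these the vector arrays lay more than 3 log2 units above the parental arrays, and the wild-type line stood near or above the vector line, with 10.42 and 10.42 for Slfn2, 8.50 and 8.32 for Cp and 9.11 and 8.95 for Clec5a. Gvin1, a very large GTPase induced by interferon, had 9.23 and 9.29 in vector cells against 6.62 and 5.97 (2.96 ± 0.41), and Cfp, properdin, which stabilises the alternative complement convertase, had 10.59 and 10.58 against 8.01 and 7.87 (2.65 ± 0.32). Ifitm6, a myeloid relative of Ifitm3, had 11.15 and 11.21 in vector cells and 8.55 and 7.69 in parental cells (3.06 ± 0.61). Clec4n, a lectin receptor for fungal mannans, was the exception outside the interferon list: it had 7.56 and 7.70 in vector cells and 5.00 and 4.6 in parental cells (2.83 ± 0.41), and the wild-type line, at 5.52 and 4.87, was called lower than the vector line (-2.44 ± 0.41, limma adjusted p = 0.00173). Of its 7 probe sets, 2 passed the filter only through the vector arrays, so the direction of those 2 was set in part by the filter. Cd74 and Cp lost their calls in each fit without 1 array, with adjusted p up to 0.094 and 0.19, and Ifitm6 in 3 of the 4, up to 0.16. The rest of those named kept theirs.

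**Figure D2:**
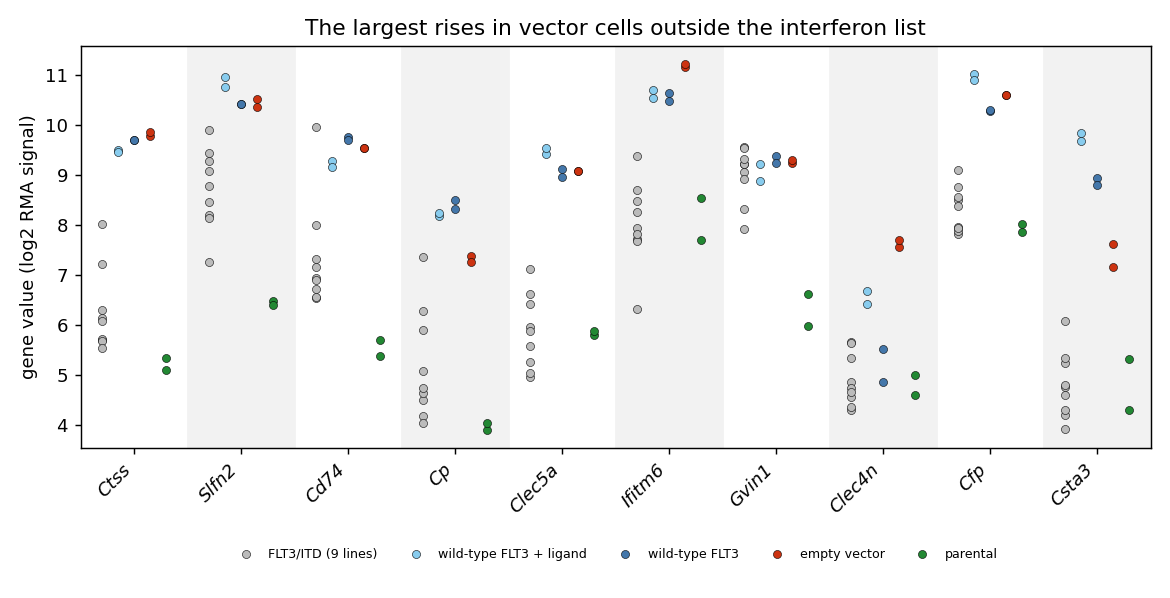
Each dot is 1 array's gene value on a log2 scale (y axis) for the largest called rises in vector cells outside the interferon list (x axis), with the 9 ITD lines at the left of each gene and the parental arrays at the right. For every gene shown the vector arrays lie above the parental arrays, and for Ctss, Slfn2, Cd74 and Clec5a the vector and wild-type FLT3 arrays lie together while the parental arrays are more than 3 log2 units lower.

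Cathepsins and their inhibitors were called in both directions. Of 13 measured stefins and cathepsins 5 were called higher and 1 lower (1.27% and 0.959% of all genes). Csta3, a stefin A of the cytosol that blocks cysteine cathepsins, had 7.61 and 7.15 in vector cells against 5.33 and 4.30 in parental cells (2.57 ± 0.51). Stfa2, measured by 1 probe set and below 4.599 on average in parental cells, differed by 3.39 ± 0.80, and Ctsz, the lysosomal cathepsin X, by 0.72 ± 0.11. Stefin A genes are near-identical copies, so signal may be split or shared among them. Cst7, or cystatin F, which inhibits cathepsins inside granules, went the other way, with 8.11 and 7.76 in vector cells and 10.72 and 10.65 in parental cells (-2.75 ± 0.34). Without 1 array 2 to 4 of the 13 were called higher, and Csta3 lost its call in 3 of the 4 fits (adjusted p up to 0.177) and Stfa2 in all (up to 0.298), while Ctsz and Cst7 kept theirs.

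Of 25 genes of monocytes and macrophages 3 were called higher (Lgmn, Cd14 and Ly6c1) and 2 lower (F13a1 and Clec7a), with a median of 0.10. Of all genes 1.27% were called higher and 0.959% lower. Lgmn, the asparaginyl protease legumain, had 7.49 and 7.50 in vector cells and 5.31 and 5.27 in parental cells (2.20 ± 0.47). Cd14, the co-receptor for bacterial lipopolysaccharide, had 6.72 and 6.58 against 4.86 and 5.41 (1.51 ± 0.25). Clec7a, a receptor for fungal glucans, had 6.63 and 6.34 in vector cells against 8.51 and 8.48 in parental cells (-2.01 ± 0.47). Adgre1 and Csf1r, which define macrophages, had 10.29 and 10.24, and 6.70 and 6.78, in vector cells against 9.99 and 10.01, and 6.82 and 6.75, in parental cells, and were not called. Of 29 C-type lectins and paired receptors 3 were called higher (Clec5a, Clec4n and Trem2, the last by 0.80 ± 0.14) and 1 lower (Clec7a). Lgmn and Clec7a lost their calls in every fit without 1 array (adjusted p up to 0.13 and 0.236), Ly6c1 in 3 of the 4 (up to 0.343), and Cd14 and Trem2 in 2 of the 4 (up to 0.0603 and 0.0755). In the monocyte and macrophage list 0 or 1 gene was called higher without 1 array, in place of 3.

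Of 26 chemokines and cytokines 2 were called higher (1.27% of all genes). Tnf had 8.12 and 8.19 in vector cells and 6.79 and 6.52 in parental cells (1.5 ± 0.32), and Ccl5, which attracts T cells and monocytes, had 7.41 and 7.60 against 6.17 and 6.10 (1.37 ± 0.25). Cxcl2, a neutrophil attractant, had 7.96 and 8.14 in vector cells against 5.90 and 6.0 in parental cells, with a limma adjusted p of 0.0509. Both calls were lost in each fit without 1 array (adjusted p up to 0.176 for Tnf and 0.0919 for Ccl5). Among 14 chemoattractant receptors P2ry13, an ADP receptor, was higher (8.53 and 8.85 in vector cells, 6.66 and 6.49 in parental cells; 2.11 ± 0.29), and Ltb4r1, the leukotriene B receptor, was lower (8.03 and 8.33 against 9.40 and 9.53; -1.28 ± 0.19). Ltc4s, which makes leukotriene C, had 9.49 and 9.56 in vector cells and 7.75 and 7.56 in parental cells (1.87 ± 0.18, limma adjusted p = 2.82e-05). These last 3 kept their calls in all 4 fits. Of 17 NF-kB targets limma called none, with 6 higher and 1 lower at an unadjusted p under 0.05. Nfkbia, the inhibitor that NF-kB induces, had 10.36 and 10.33 in vector cells against 8.90 and 9.00 in parental cells (1.40 ± 0.38, adjusted p = 0.0674).

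The largest falls included granule proteases and eosinophil proteins. Prss34, a protease of basophils and mast cells, had 8.64 and 8.43 in vector cells and 12.85 and 12.69 in parental cells, an 18.8-fold difference (-4.23 ± 0.54, limma adjusted p = 0.00031). Prss28, a tryptase-like serine protease, had 5.54 and 5.34 in vector cells and 9.77 and 9.82 in parental cells (-4.35 ± 0.43, limma adjusted p = 3.99e-05). Cma1, the mast cell chymase, had 5.76 and 5.95 against 8.44 and 8.18 in parental cells (-2.46 ± 0.26, limma adjusted p = 6.75e-05). For Prss34 all 9 used probe sets were lower on both vector arrays than on both parental arrays, and the same held for all 9 of Prss28. The carboxypeptidase Cpa3 of mast cell granules had 9.63 and 9.55 in vector cells and 11.92 and 11.67 in parental cells (-2.20 ± 0.32), and Mcpt8, a basophil protease, had 10.59 and 10.60 against 12.59 and 12.48 (-1.94 ± 0.48). With Prss34 and Cma1 these made 4 called lower among 19 measured mast cell and basophil genes, with a list median of -0.51, and 3 were called in each fit without 1 array. Mcpt8 was the member lost, with an adjusted p of up to 0.234.

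In the mast cell and basophil list the receptor genes did not pass the test. Fcer1a, the alpha chain of the IgE receptor, had 11.42 and 11.37 in vector cells and 12.54 and 12.40 in parental cells (-1.08 ± 1.11, limma adjusted p = 0.721), and Ms4a2, its beta chain, had 6.78 and 7.06 against 7.49 and 7.37 (-0.51 ± 0.37, limma adjusted p = 0.578). The fit shares its spread with the 9 different ITD lines, in which Fcer1a ran between 7.31 and 11.97. In the fit on the 4 arrays alone its adjusted p was 0.000414, but that fit called 2013 of all 20227 genes, against 451 in the main fit. The granule protease Gzmb had 8.60 on both vector arrays and 10.86 and 10.71 on the parental arrays (-2.18 ± 0.72, limma adjusted p = 0.137).

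Of 7 measured eosinophil genes 2 were called lower (0.959% of all genes), with a list median of -1.41. Differences in the list ran from -4.12 to 0.78. Both vector arrays lay below both parental arrays for 5 of the 7 and above for 1 (25.7% and 29.3% of all genes). Prg3, a homologue of the major basic protein of eosinophil granules, had 6.13 and 6.0 in vector cells and 10.35 and 10.03 in parental cells (-4.12 ± 0.76, limma adjusted p = 0.00724). Ear6, an eosinophil-associated ribonuclease with close paralogues, had 5.13 and 5.32 against 9.37 and 8.99 (-3.95 ± 0.87, limma adjusted p = 0.0216). Both calls were lost in each fit without 1 array, with adjusted p up to 0.078 and 0.158. Prg2, the major basic protein itself, had 9.37 and 9.56 in vector cells and 12.32 and 12.30 in parental cells but missed the threshold (-2.84 ± 0.84, limma adjusted p = 0.0905), and so did Epx, the eosinophil peroxidase, at 11.38 and 11.36 against 12.81 and 12.75 (-1.41 ± 0.58, limma adjusted p = 0.256). In the fit on the 4 arrays alone the adjusted p of Prg2 was 5.24e-05 and that of Epx 7.93e-05. That fit called 2013 of all 20227 genes, against 451 in the main fit, and rests on 2 arrays a group. Whether fewer cells held these RNAs or each cell held less of them cannot be told apart in bulk RNA.

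The other large falls came from genes of varied function. Lrrc19, a leucine-rich repeat membrane protein measured by 2 probe sets, had 4.82 and 3.89 in vector cells and 9.49 and 9.86 in parental cells. Both probe sets passed the filter on low values only through the parental arrays, as held for 2 of the 451 called genes, so these levels are given as a description. Slc26a3, a chloride and bicarbonate exchanger, had 6.09 and 6.13 in vector cells and 9.76 and 9.72 in parental cells (-3.63 ± 0.39), with all 22 probe sets lower. Of these 22, 5 passed the filter only through the parental arrays, so the direction of those 5 was set in part by the filter. F13a1, the transglutaminase chain of coagulation factor XIII, had 4.69 and 4.91 against 7.91 and 7.84 (-3.08 ± 0.36). Slc26a3 and F13a1 kept their calls in all 4 fits without 1 array. Differences between -2.69 and -2.33 were found for Cyp2b10, a cytochrome P450, Slc28a2, a nucleoside transporter, and Sprn, a relative of the prion protein. Pik3c2g, a class II phosphoinositide kinase, was in this range too (-3.31 to -1.28 under other settings), with 3 of 12 probe sets past the filter only through the parental arrays. So were Diras2, a Ras-like GTPase (-2.46 to -1.58 under other settings), and Siglec5, a sialic acid-binding lectin whose symbol RefSeq lists as an older name of both Siglece and Siglecf. Of these Slc28a2 and Sprn lost their calls in every fit without 1 array (adjusted p up to 0.071 and 0.142) and Pik3c2g in 3 of the 4 (up to 0.0675).

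With wild-type FLT3 Prss34 read 5.88 and 5.93, lower than with the vector (-2.63 ± 0.54, limma adjusted p = 0.00632), and Cpa3 read 7.32 and 7.01 (-2.43 ± 0.32 against the vector, limma adjusted p = 0.000353). Lrrc19 read 3.81 and 3.89 and Slc26a3 4.75 and 4.87, both at or under the vector level. In the ITD lines Slc26a3 ran between 4.59 and 6.46 and Cma1 between 5.30 and 6.21, so both were high on the parental arrays alone. In part the filter favoured this, as 5 of 22 and 2 of 11 of their probe sets passed it only through the parental arrays. Lrrc19 ran between 3.30 and 4.88 in the ITD lines, given as a description because its probe sets passed only through the parental arrays. Prss34, in contrast, ran between 9.24 and 11.99 in the ITD lines, above both vector arrays and below both parental arrays.

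**Figure D3:**
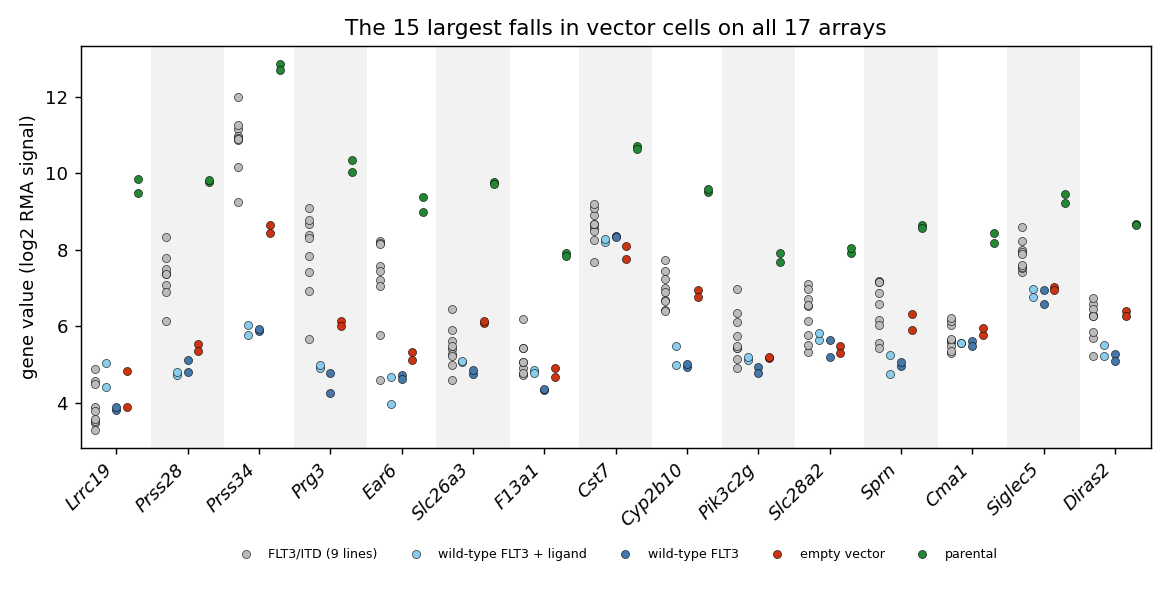
Each dot is 1 array's gene value on a log2 scale (y axis) for the 15 largest called falls in vector cells (x axis), with the 9 ITD lines at the left of each gene and the parental arrays at the right. The parental arrays are the highest of all 17 for each gene, for instance at 9.49 and 9.86 for Lrrc19 against 4.82 and 3.89 in vector cells. Lrrc19 passed the filter only through the parental arrays. The ITD lines spread widely for Prg3 (5.67 to 9.10) and Ear6 (4.6 to 8.22).

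Genes of the neutrophil lineage were called in few cases in the fit on 17 arrays and in more on the 4 arrays, a fit that called more of all genes too. Of 8 measured primary granule genes limma called none, and 1 was lower at an unadjusted p under 0.05. Prtn3, a granule protease, had 12.59 and 12.58 in vector cells against 12.56 and 12.41 in parental cells, its relative Ctsg had 12.47 and 12.48 against 12.48 and 12.33, and Mpo, the myeloperoxidase, had 11.48 and 11.40 against 12.64 and 12.55 (-1.15 ± 0.34, adjusted p = 0.0876, and 0.000256 in the fit on the 4 arrays). Of 23 late granule genes 1 was higher, the gelatinase Mmp9, with 7.60 and 7.46 against 6.52 and 6.36 (1.09 ± 0.15), and 1 was lower, the cathelicidin Camp, with 7.09 and 7.28 against 8.66 and 8.23 (-1.26 ± 0.30). The list's median difference was 0.37. On both vector arrays 13 members lay above and 7 below both parental arrays (29.3% and 25.7% of all genes). The fit on the 4 arrays called 11 of the 23 higher and 3 lower, but also 893 and 1120 of all 20227 genes. Ly6g had 8.16 and 7.98 in vector cells and 7.90 and 8.23 in parental cells, with overlapping arrays, and Ltf had 9.82 and 9.88 against 9.98 and 10.02. Among 26 myeloid transcription factors Gfi1, a repressor that granulocytes need, had 9.46 and 9.57 in vector cells against 8.31 and 8.32 in parental cells (1.2 ± 0.25), and Runx2 was lower (-0.54 ± 0.12). Spi1 and Cebpa differed by 0.32 ± 0.14 and -0.07 ± 0.16 and were not called. Mmp9 kept its call in all 4 fits without 1 array, Camp and Gfi1 in none (adjusted p up to 0.289 and 0.137), and Runx2 in 1 (up to 0.26).

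Erythroid and megakaryocyte genes were called lower in 2 of 19 cases (0.959% of all genes), with a median of -0.64. Klf1, a transcription factor of red cell precursors, had 6.54 and 6.15 in vector cells and 8.01 and 7.85 in parental cells (-1.59 ± 0.36), and Epor, the erythropoietin receptor, had 7.90 and 7.93 against 8.82 and 8.84 (-0.91 ± 0.23). Gata1 had 8.43 and 8.28 in vector cells and 9.55 and 9.48 in parental cells without passing the test (-1.16 ± 0.37, limma adjusted p = 0.129). Klf1 and Epor lost their calls in each fit without 1 array, with adjusted p up to 0.239 and 0.24.

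The IL-3 receptor was lower in vector cells in its alpha chain. Il3ra had 9.21 and 9.13 in vector cells against 10.06 and 10.25 in parental cells (-0.98 ± 0.18, limma adjusted p = 0.00655). The common beta chain Csf2rb had 10.61 and 10.52 against 11.51 and 11.41 (-0.89 ± 0.38, limma adjusted p = 0.28), and the IL-3-specific mouse beta chain Csf2rb2 had 10.70 and 10.68 against 11.88 and 11.71 (-1.10 ± 0.30, limma adjusted p = 0.0649), neither called. Il2rb, a receptor chain for IL-2 and IL-15, had 6.49 and 6.47 in vector cells and 5.36 and 5.22 in parental cells (1.19 ± 0.22). Il2ra, the IL-2 receptor alpha chain and a STAT5 target, had 8.94 and 8.92 in vector cells and 4.53 and 5.06 in parental cells, yet with a range of 5.32 to 10.76 in the ITD lines it did not pass (4.13 ± 1.14, limma adjusted p = 0.072). In the fit on the 8 control arrays its adjusted p was 2.01e-06, but that fit called 2773 of all 20227 genes, against 451 in the main fit. Over 21 cytokine receptors 1 was called higher and 2 lower, Il3ra and Epor. Without 1 array Il2rb lost its call in all 4 fits and Il3ra in 3 (adjusted p up to 0.0996 and 0.0959). Of 15 STAT5 targets 1 was called, the cyclin gene Ccnd2, at 9.45 and 9.48 in vector cells against 8.79 and 8.89 in parental cells (0.62 ± 0.12, up to 0.125 without 1 array, with the call lost in each fit).

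Genes of amino acid supply were called higher in 5 of 23 cases (1.27% of all genes), with a median of 0.48, and both vector arrays lay above both parental arrays for 21 (29.3% of all genes). Phgdh and Psat1, the first enzymes of serine synthesis, had 11.32 and 11.30, and 10.26 and 10.27, in vector cells against 10.54 and 10.72, and 9.54 and 9.67, in parental cells (0.68 ± 0.09 and 0.66 ± 0.09). Pycr1, a proline-making reductase, differed by 1.04 ± 0.20, the glycine transporter Slc6a9 by 0.80 ± 0.19, and Atf4, the transcription factor of the pathway, by 0.52 ± 0.10. In the wild-type line Phgdh read 11.97 and 11.99 and Psat1 10.80 and 10.81, and 10 of the 23 were called higher there than with the vector, against 5.5% of all genes. For these 2 the differences were called (0.67 ± 0.09 and 0.54 ± 0.09, limma adjusted p = 0.000522 and 0.00184). Without 1 array 2 of the 23 were called in each of the 4 fits, Phgdh and Psat1, and Pycr1, Slc6a9 and Atf4 had adjusted p of up to 0.0945, 0.209 and 0.0903.

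Sterol genes lay the other way: of 21 genes of cholesterol and fatty acid synthesis 2 were called lower (0.959% of all genes). Their median was -0.44, and 16 members were lower on both vector arrays than on both parental arrays (25.7% of all genes). Fdft1, squalene synthase, had 8.07 and 8.04 in vector cells and 8.85 and 8.87 in parental cells (-0.81 ± 0.18), and Srebf2, which switches on sterol genes, had 9.32 and 9.29 against 9.76 and 9.68 (-0.41 ± 0.10). Sqle, squalene epoxidase, had 9.94 and 9.87 against 10.68 and 10.74 (limma adjusted p = 0.0536). Fdft1 and Srebf2 lost their calls in each fit without 1 array, with adjusted p up to 0.168 and 0.23. Integrins and tetraspanins had 2 of 26 called lower, Itga4 (-0.97 ± 0.22) and Cd37 (-0.83 ± 0.17), likewise lost without 1 array (up to 0.195 and 0.134).

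Among 20 lymphoid genes Ighm, the heavy chain of IgM, had 6.85 and 6.98 in vector cells against 6.02 and 5.86 in parental cells (0.98 ± 0.21), and Bst2, or tetherin, which holds budding virus at the cell surface, had 11.90 and 11.86 against 11.31 and 11.24 (0.61 ± 0.13). Of 26 genes of ERK feedback and the immediate early response Spry2, an inhibitor of receptor signalling, was called lower (-0.61 ± 0.14). Of 13 kinase inhibitors and G1 cyclins Ccnd2 was called higher and the inhibitor Cdkn2c lower (-0.84 ± 0.19), and of 20 genes of Myc and ribosome biogenesis Nop56 was called higher (0.64 ± 0.14). Ighm, Bst2, Spry2, Cdkn2c and Nop56 lost their calls in each fit without 1 array, with adjusted p of up to 0.161 to 0.316. In 15 lists with 263 measured entries limma called none, and 49 of the 263 (18.6%) had an unadjusted p under 0.05, against 14.5% of all genes. A gene in more than 1 of these lists counts once in each, so the shares are not on the same basis. Among these lists were cell cycle (27 measured, median -0.19), p53 targets (18, median -0.07), apoptosis regulators (22, median -0.05), the unfolded protein response (18, median -0.06), lysosome (20, median 0.00), glycolysis (20, median 0.11), stromal and epithelial genes (15, median 0.06) and S100 proteins and annexins (15, median 0.02). The rest were progenitor transcription factors (median 0.15), serpins (0.10), handling stress (0.22), haemoglobin, iron and oxidative stress (0.15), and the lists of class I antigen processing (0.14), primary granule (0.06) and NF-kB targets (0.29). Their members were not shown to be equal: Mki67, a marker of dividing cells, differed by -0.57 ± 0.20 (limma adjusted p = 0.162) and Mcm6, a replication helicase, by -0.65 ± 0.22 (limma adjusted p = 0.148).

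**Figure D4:**
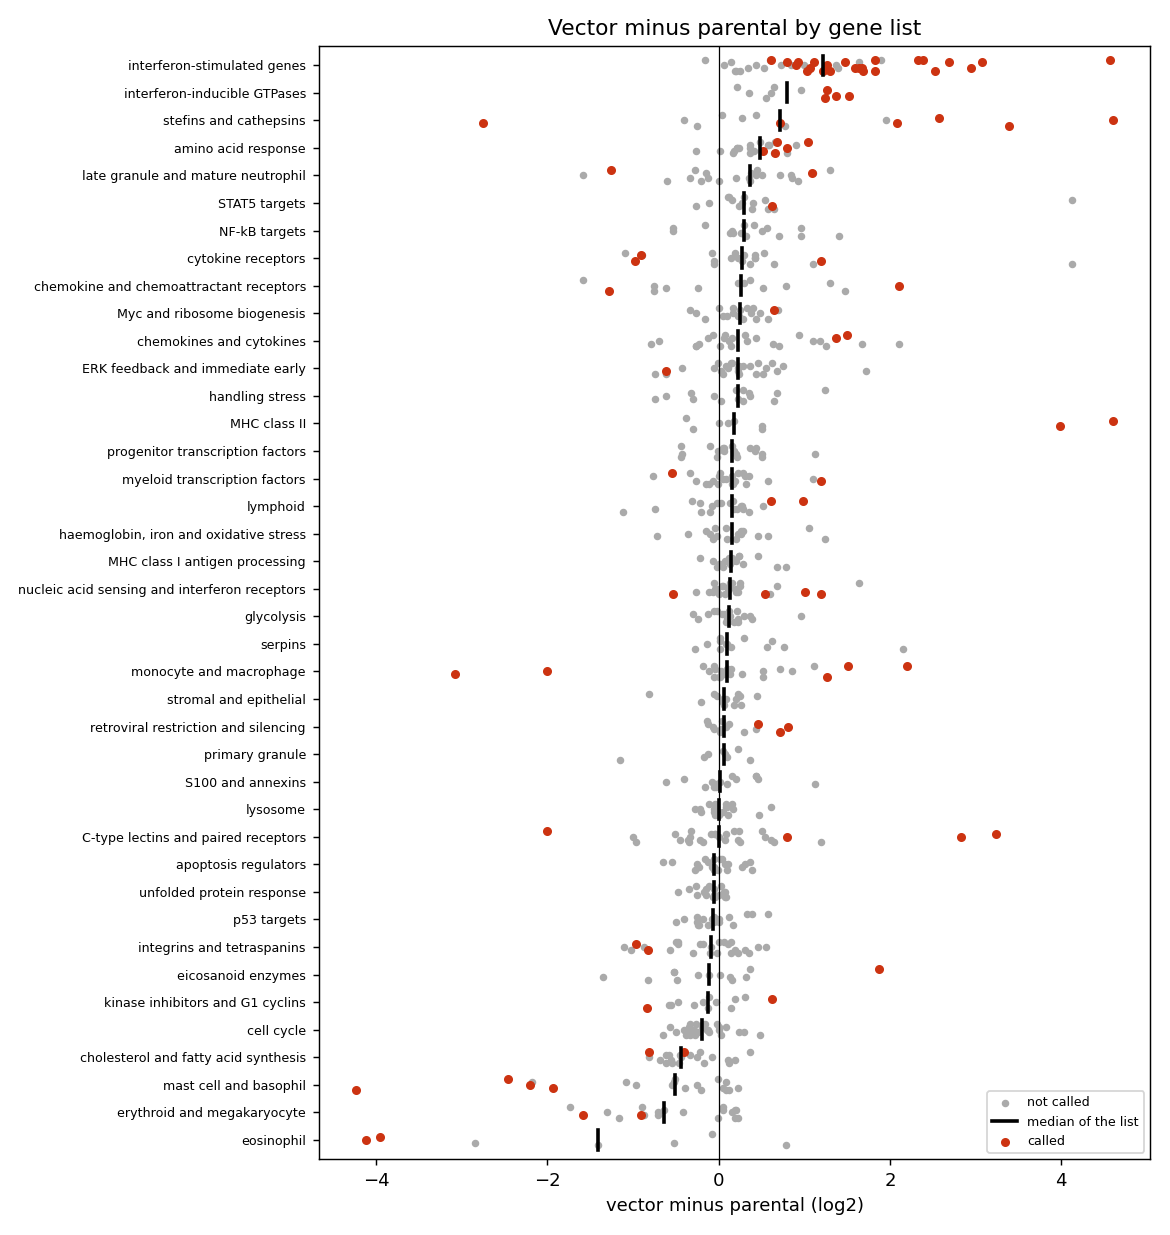
Each dot is the vector minus parental difference (x axis, log2) of 1 measured gene in each of 40 gene lists (y axis, ordered by median), red where limma called it and grey where not, and black bars are list medians. The interferon-stimulated list has the highest median (1.22) with 24 of 41 members called, and the eosinophil list the lowest (-1.41).

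Neighbouring genes on some chromosomes differed in 1 direction over long runs. The genes with a mean level above 7 were put in chromosomal order (9592 genes), the median of 21 neighbours was taken for the first vector array minus the first parental array, and runs of at least 15 genes past 0.25 were then described on the second array of each group. On chromosome 11 a run of 102 genes, Rab37 to Dus1l, had a median of 0.39 in the arrays that chose it and 0.41 in the second pair, in which 92 of the 102 were higher in vector cells (49.9% of all ordered genes). With wild-type FLT3 its median against parental cells was -0.04, and with ITD 0.28. On chromosome 9 a run of 97 genes, Mindy2 to Topbp1, had medians of -0.41 and -0.34, with 75 lower in the second pair. On chromosome 1 a run of 41 genes, Tmem177 to Mdm4, had medians of -0.50 and -0.44, with 34 lower. The wild-type line's medians against parental cells in these runs were -0.20 on chromosome 9 and -0.28 on chromosome 1.

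In all there were 10 such runs, on chromosomes 1, 2, 5, 8, 9 and 11, with 391 genes. They held 43 of the 451 called genes, and 408 were called outside them. Of all genes tested 2.23% were called. The run on chromosome 11 held 14 called genes, all higher, among them Lgals3bp of the interferon list (1.11 ± 0.13) and Pycr1, and Ikbke and Slc7a1 were called higher inside runs whose median was lower. These runs were found after the data were seen and carry no test. The first array of each group chose the runs and also entered the calls. The number and direction of called genes inside the runs were thus set in part by that choice. The arrays measured RNA only.

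**Figure D5:**
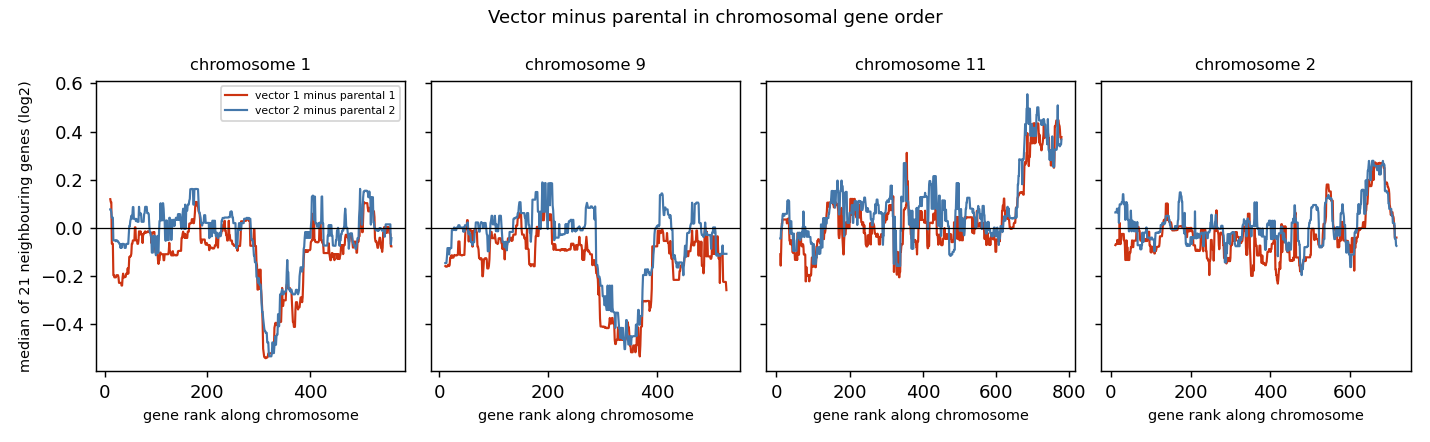
Lines are running medians over 21 neighbouring genes of vector minus parental (y axis, log2) against gene rank along 4 chromosomes (x axis), red for the first and blue for the second array of each group. Both lines dip on chromosomes 1 and 9 and climb at the end of chromosome 11, where the run's medians are 0.39 and 0.41.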

How the data were processed

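Values were deposited as log2 signals per probe set of mouse exon arrays. The authors used RMA, and the submitters' processing notes name Affymetrix Expression Console 1.1. The genome build and any probe set filter are not given in the sources used here. Of 1256831 probe sets 325444 had a gene symbol, and 6684 of these had several and were left out. Symbols were updated through RefSeq synonyms (4227 of 22296 changed, 63 unmatched). A gene's value is the mean of its probe sets whose 17-array mean exceeded 4.599, the median over all probe sets, leaving 20227 genes (median 9 probe sets). Array medians were 4.63 to 4.69. Precision is limited by having 2 arrays a group.

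Differences came from limma 3.58.1 in R 4.3.3: 5 group means over 17 arrays, a trended prior, a two-sided moderated test and Benjamini-Hochberg adjustment over all genes. Most of the 12 residual degrees of freedom come from the 9 ITD mutants. An exact permutation test of 2 arrays against 2 cannot go below p = 0.333. Alternatives were other filters and summaries, renormalization, centring, fits on 4 or 8 arrays, no trend, a replicate block and leaving out each array.

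Named by rule were Flt3, the 15 largest called rises and falls (at least 2 probe sets, no overlap between groups, no clone-named or predicted genes), up to 4 called genes of each of 40 lists, and cell type markers. The members and lists were chosen with earlier results of these data known. Promoters are RefSeq windows on GRCm38.p6.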

Additional observations from a re-analysis of the deposited data

Results flagged for a closer look

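Cd74, the invariant chain of class II molecules, had 1 ITD line at 9.95, while the next highest of the 9 ITD lines had 8.0. F13a1, the coagulation factor XIII chain, had 1 ITD line at 6.20 and the next at 5.43. In both cases the highest array lay far from the others for the range of its group; chance marks about 1 in 20 such groups, and 31 genes were examined this way. Both values lie among the ITD lines, which enter the spread of the fit but neither side of vector minus parental.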

How the results depend on the processing

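The 451 called genes became 681 after a second quantile normalization (357 higher), 2013 in the fit on the 4 arrays (893 higher), 2773 in the fit on the 8 control arrays (1255 higher) and 2418 with a replicate block on those 8 arrays, and 105 to 149 when 1 array was left out. The 184 genes that differed at least 2-fold became 305, 312 and 304 in the fits on 4 arrays, on 8 arrays and with the replicate block, and 88 to 116 when 1 array was left out. Fits without the ITD lines leave out 9 arrays of different mutants and so have a smaller spread, and of the 451 calls they kept 433 (4 arrays), 448 (8 arrays) and 444 (block) in the same direction. The block used numbers that the arrays merely share. The other alternatives called 351 to 552 genes. None of the 75 called named genes changed direction under any alternative, while 18 of the 39 named genes that were not called changed sign without being called. Of the 30 largest rises and falls 25 were called under all 11 alternatives with all 4 arrays: Csta3 and Ear6 lost their calls with the median of probe sets, and Clec4n, Lrrc19 and F13a1 were not measured under the stricter filter (Lrrc19 also with at least 3 probe sets). Lrrc19 counts among the 30 although it passed the main filter only through the parental arrays. Ccl5 (1 of 5), Clec7a (1 of 6), Siglec5 (1 of 15) and Slc28a2 (1 of 22) also had a probe set that passed only through the higher group. In all 4 fits without 1 array 20 of the 30 were called, and 28 of the 75 called named genes. The interferon list had 23 to 33 called members under the alternatives with all 4 arrays and 17 to 20 without 1 array. Chosen after seeing the data, the count without the genes of the chromosomal runs was 408. Genes near 4.6 lie at the dim end of the arrays, where differences are compressed; 18 called genes rest on 1 probe set.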

Other observations

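Several called genes outside the lists are given here, named after their values were seen. Il15, a cytokine for natural killer and memory T cells, had 7.08 and 7.01 in vector cells and 8.79 and 8.60 in parental cells (-1.65 ± 0.17, limma adjusted p = 6.75e-05); it is known as an interferon-inducible gene. Il34, a ligand of the receptor Csf1r, had 6.96 and 7.13 in vector cells against 8.66 and 8.91 in parental cells (-1.75 ± 0.26, limma adjusted p = 0.00113). Both were lower again with wild-type FLT3, at 6.07 and 6.04 for Il15 and 6.05 and 6.0 for Il34. Fcnb, a ficolin of the lectin pathway of complement, fell by 2.00 on the log2 scale, with 6.56 and 6.54 in vector cells against 8.68 and 8.41 in parental cells, and F10, coagulation factor X, had 8.33 and 8.42 against 10.14 on both parental arrays (-1.76 ± 0.23). These 4 genes were called in all 4 fits without 1 array.

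Among rises, Slfn4, a Schlafen gene of myeloid cells, had 11.71 and 11.65 in vector cells and 9.87 and 9.81 in parental cells (1.84 ± 0.31, limma adjusted p = 0.00363), and in the wild-type line it was in between, at 10.62 and 10.55. Oas1g and Oas1b, close copies of Oas1a whose signals may be shared, had 10.12 and 10.13, and 7.36 and 7.31, in vector cells against 8.43 and 8.43, and 5.77 and 5.69, in parental cells. Gbp8, a guanylate-binding protein, had 7.25 and 7.75 against 5.49 and 6.09 (1.70 ± 0.23). Without 1 array Oas1g and Gbp8 kept their calls in all 4 fits, and Slfn4 and Oas1b in 3, with adjusted p of up to 0.0532 and 0.0503. Gpr84, a receptor for medium-chain fatty acids, had 8.77 and 8.73 in vector cells, 6.48 and 6.28 in parental cells and 8.73 and 8.62 with wild-type FLT3, and its call held in 1 of the 4 fits (up to 0.0749).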
